A study of Mus musculus with 8 samples.

Results

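The genes described here encode the machinery of intraflagellar transport (IFT) and its partner complex, the BBSome, in mouse testis. They were taken from the count table by symbol: every Ift gene with a number, every Bbs gene with a number, the kinesin genes Kif3a, Kif3b and Kif3c, and Traf3ip1, Cluap1, Ttc30b, Dync2h1 and Dync2li1, with pseudogenes left out. The rule found 31 of the 56748 gene rows, 30 coding genes and 1 antisense RNA, Ift88os, whose symbol fits the Ift pattern although it encodes no transport subunit. The study measured RNA in adult testis from mice labelled Ak9-/- (4 libraries, labelled knockouts 1 to 4) and WT (4 libraries, wild types 1 to 4), and its stated aim was to find genes whose expression differs between these genotypes. AK9 is an adenylate kinase, one of the enzymes that interconvert adenine nucleotides, and the series concerns male fertility and sperm motility. The labels name no strain, no age beyond adult and no further allele or agent.

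Intraflagellar transport moves protein trains along the microtubules of cilia and flagella. IFT-B trains are carried towards the tip by kinesin-2, and IFT-A trains with dynein-2 return cargo to the base. The BBSome is a coat-like adaptor that links membrane proteins to these trains, and a group of chaperonin-like proteins is needed to assemble it. In the testis the pathway is best known from spermatids, which build the sperm flagellum, and loss of several of its subunits in mice leaves sperm with short or missing tails.

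No gene of the family passed the test between the genotypes. With edgeR's quasi-likelihood test and Benjamini-Hochberg adjustment at 0.05 over the 21805 genes tested, 0 of 31 members were higher and 0 were lower in the libraries labelled knockout, against 0.0183% and 0% of all genes. DESeq2 also called 0 of 31 members, against 0.0884% of genes higher and 0.0688% lower. All 31 members passed the filter on low counts, and their smallest adjusted p was 1.00 with edgeR. At an unadjusted p under 0.05 there was 1 member, Ift22, against 1.25% of genes higher and 1.79% lower. The log2 fold changes (labelled knockout over wild type) ran from -0.12 for Bbs12 to 0.31 for Ift22, with a median of 0.05 beside 0.01 over all genes tested. They were above 0 for 25 members and below 0 for 6, against 52.9% of all genes above 0. These values are with TMM, which sets a common scale from the bulk of the genes. When counts were scaled by library totals alone, 14 members were above 0. The median was then -0.01 for members and -0.02 over all genes. The share of all genes above 0 was not counted at that scaling, so 52.9% is not the background of the 14.

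The libraries differ in ways that touch these values. Totals were 18062780 to 24415587 counts, and the 31 members took 0.354% to 0.362% of counts in labelled knockouts and 0.345% to 0.356% in wild types. Ak9 itself had 69.3, 116, 101 and 40.6 CPM (the TMM-scaled share of a library's counts, on one common scale) in the libraries labelled knockout, numbered 1 to 4, and 107 to 122 CPM in the wild types, a log2 fold change of -0.47 with a standard error (SE) of 0.25 (edgeR adjusted p = 1.00, exact two-sided permutation p = 0.143). Labelled knockout 2 thus lay within the wild-type range although it is labelled knockout. A count over the whole gene does not show whether the transcript is intact, and the labels do not say which part of Ak9 was altered. Spearman correlations across genes were 0.957 to 0.977 among labelled knockouts and 0.991 to 0.993 among wild types. Labelled knockout 3 stood apart: its 11 tested round spermatid markers of a list of 12 summed to 1095 CPM, against 1867 to 2072 CPM in the other labelled knockouts and 1496 to 1690 CPM in wild types. Its 10 elongating spermatid markers held 9112 CPM, against 14420 to 17978 CPM in wild types and 17216 to 22079 CPM in other labelled knockouts. The 10 Sertoli markers summed to 1414 to 1578 CPM in wild types. In labelled knockouts 1, 2 and 4 they summed to 1111, 1473 and 1019 CPM. Labelled knockout 3 had 1979 CPM of these markers, of which Clu gave 1568 CPM. It also held 3755 counts of the epididymal gene Crisp1 and 531 of Adam7, beside 419 and 72 in labelled knockout 4 and at most 10 and 4 in the other 6 libraries. Of the 9 other epididymal genes listed, Defb1 had 18 counts in it against at most 3 elsewhere and Lcn5 had 9 against at most 1, Rnase10 had 63 against 75 to 132, and the other 6 had at most 7 counts in any library, with Ovch2 at 0 in all 8. In whole-tissue RNA, fewer cells of a type and less RNA per cell cannot be told apart.

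Levels per length differed widely between subunits (CPM per kilobase of merged exon, mean ± SD of the 4 wild types). Ift74 was highest at 91.2 ± 7.20, followed by Ift172 at 69.3 ± 4.40 and Ift140 at 63.7 ± 3.56, then Kif3b at 47.5 ± 0.812 and Ift20 at 43.0 ± 2.40. Ift172 and Ift140 lay closer to each other than the sum of their SDs, whereas Ift74 lay further from Ift172 than that sum. At the low end were Bbs1 at 4.35 ± 0.206, Bbs4 at 3.68 ± 0.231, Ttc30b at 3.50 ± 0.321, Bbs12 at 2.72 ± 0.397, Kif3c at 0.489 ± 0.114 and Ift88os at 0.235 ± 0.113. Bbs4 and Ttc30b did not differ beyond their spread. In the same unit the wild-type means of 4 subunits outside the rule were 84.5 for Kifap3, 103 for Dynlrb2, 60.8 for Ttc30a2 and 3.66 for Ttc8. The order rests on the exon lengths used: by CPM without length, 7 of the 10 leading members stayed among the 10.

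**Figure D1:**
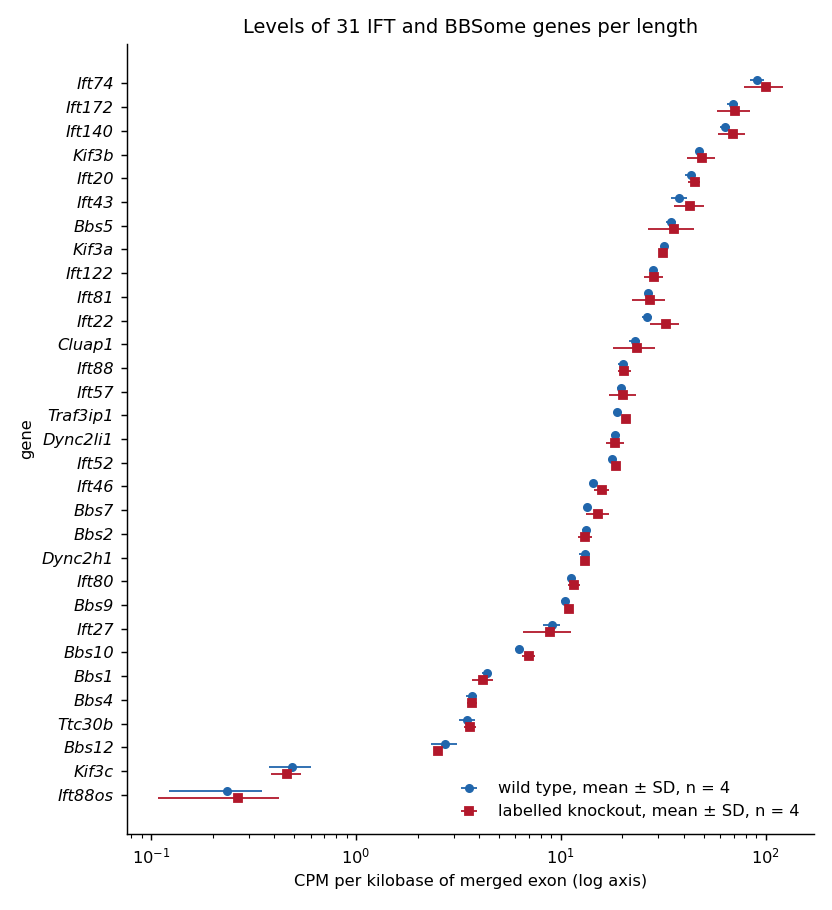
Level of each of the 31 members in CPM per kilobase of merged exon (horizontal log axis), as mean ± SD of 4 wild types (blue circles) and 4 labelled knockouts (red squares). Ift74, Ift172 and Ift140 head the order in wild types at 91.2, 69.3 and 63.7, Kif3c and Ift88os close it at 0.489 and 0.235, and the largest difference between group means among coding members, that of Ift22, is 0.31 on the log2 scale.

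Promoters of ciliary genes are known for the X-box, the inverted repeat that RFX transcription factors bind, so the RefSeq promoter windows (GRCm38.p6, 250 bases before to 50 after each start) were searched on both strands. A full X-box was taken as GTTNCC, 0 to 3 bases, then GGNAAC, and a single half-site as GTTGCC or GGCAAC; a full site can contain a half-site. Of the 31 members, 25 had a window. A full X-box stood in 2 of 25 windows (8.0%), those of Bbs7 and Ift57, against 0.804% of 32851 windows in the table, and a half-site in 12 of 25 (48.0%), against 12.5%. Among subunits and motors of the same complexes outside the rule, the counts were 2 of 20 windows (10%) and 7 of 20 (35.0%). Both full sites are shown, with the half-sites of Traf3ip1, the member whose groups did not overlap, and Ift140, the IFT-A gene with the most reads. The matching letters are in capitals, and each run is written 5′ to 3′ on the strand of its gene. The runs are chr3:36613472-36613535 (minus strand, match starting 121 bases before the gene's start), chr16:49699209-49699271 (plus strand, 60 bases before), chr1:91494564-91494619 (plus strand, 79 bases before) and chr17:25015952-25016007 (plus strand, 109 bases before).
Bbs7: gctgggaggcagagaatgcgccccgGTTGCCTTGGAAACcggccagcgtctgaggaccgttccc
Ift57: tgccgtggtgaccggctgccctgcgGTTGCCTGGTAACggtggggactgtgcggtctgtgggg
Traf3ip1: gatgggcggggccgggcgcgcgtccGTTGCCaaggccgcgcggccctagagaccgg
Ift140: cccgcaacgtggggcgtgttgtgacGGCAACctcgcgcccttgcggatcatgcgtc
The half-sites differ in direction, GTTGCC in Traf3ip1 and GGCAAC in Ift140, and are the same letters read on opposite strands. The window of Ift22, the member with the smallest p, held neither pattern. A match in letters is a description and was not tested as a binding site.

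**Figure D2:**
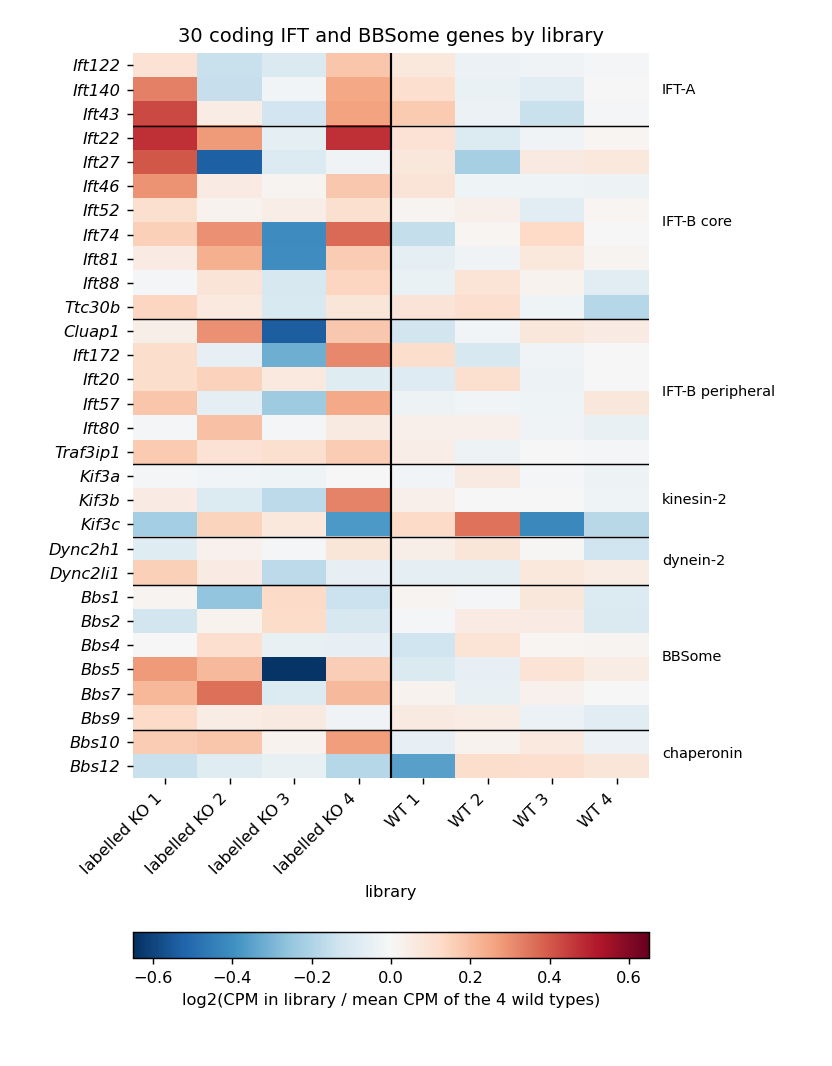
Log2 ratio of each library's TMM-scaled CPM to the mean of the 4 wild types, for the 30 coding members (rows, by role) in the 4 labelled knockouts and 4 wild types (columns). Red is above and blue below the wild-type mean. Labelled knockouts 1 and 4 are mostly red. The deepest blue cells are Bbs5 and Cluap1 in labelled knockout 3, at 64.3% and 68.9% of the wild-type mean, and Ift27 in labelled knockout 2, at 69.1%. When library totals replace TMM, the balance of the 31 members above and below the wild types turns over in labelled knockouts 3 and 4. It is then even in labelled knockout 1, where 20.3% of all genes lay above and 44.3% below every wild type. The shares of all genes above and below were 46.7% and 26.6% in labelled knockout 3. They were 19.7% and 48.8% in labelled knockout 4.

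In all 3 IFT-A members, labelled knockouts 1 and 4 were above every wild type under TMM scaling; under library totals as well, this held for Ift140 and Ift43 in labelled knockout 1. Ift140, a core subunit that acts in return transport and in the entry of membrane proteins, had 666, 478, 524 and 633 CPM in labelled knockouts 1 to 4, against 573, 516, 506 and 530 CPM in wild types 1 to 4. Labelled knockouts 1 and 4 lay above every wild type and labelled knockout 2 below every one, so the groups overlapped. The means were 575 ± 88.7 and 531 ± 29.6 CPM (SD, n = 4), a log2 fold change of 0.12 with a 95% interval of -0.17 to 0.40. Ift43, a small peripheral subunit, stood at 84.3, 64.9, 57.6 and 75.3 CPM against 70.6, 61.1, 56.8 and 62.4 CPM. Its labelled knockouts 1 and 4 were the highest of the 8 libraries, and its log2 fold change was 0.17 (95% interval -0.11 to 0.45). Ift122, another core subunit, had 311, 263, 272 and 330 CPM against 284 to 305 CPM and a log2 fold change of 0.02 (SE 0.11).

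The core of IFT-B held the largest log2 fold change of the family. Ift22, a small Rab-like GTPase bound to the Ift74 and Ift81 pair, had 132, 115, 91.6 and 132 CPM in labelled knockouts, against 102, 89.7, 93.6 and 96.0 CPM in wild types. Labelled knockouts 1, 2 and 4 lay above every wild type and labelled knockout 3 among them. The means were 118 ± 19.3 and 95.2 ± 5.01 CPM (SD, n = 4), a log2 fold change of 0.31 with a 95% interval of 0.03 to 0.58, and the edgeR adjusted p was 1.00. Without labelled knockout 3 it was 0.40, with an edgeR adjusted p of 0.0734. Ift74, which with Ift81 forms the tubulin-binding pair of the train, had 270, 298, 182 and 312 CPM against 218, 244, 265 and 242 CPM. Ift81 had 162, 184, 118 and 175 CPM against 149, 154, 164 and 158 CPM. Labelled knockout 3 was the lowest library for both partners, at 75.3% and 75.6% of the wild-type mean, and labelled knockouts 2 and 4 were above every wild type for both. The log2 fold changes were 0.13 (SE 0.16) for Ift74 and 0.03 (SE 0.13) for Ift81, so the spread among labelled knockouts exceeded the difference between groups.

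Among the other core subunits, Ift27, a Rab-like GTPase that acts in the exit of the BBSome from cilia, varied most between labelled knockouts, with a coefficient of variation of 26.3%. It stood at 34.2, 17.9, 24.3 and 25.5 CPM against 27.3, 22.3, 26.9 and 27.1 CPM. Labelled knockout 1 was the highest and labelled knockout 2 the lowest of all libraries, and the log2 fold change was -0.02 (SE 0.17). Ift46, which is known to carry outer dynein arm cargo, had 113, 96.0, 93.5 and 104 CPM against 98.0, 90.8, 90.6 and 90.4 CPM. Only wild type 1 reached into the range of its labelled knockouts, and the log2 fold change was 0.14 (95% interval -0.07 to 0.35). Ift52 and Ift88, scaffold subunits of the core, were steady: Ift52 had 53.6, 50.7, 51.4 and 53.6 CPM against 50.6, 51.1, 47.5 and 50.3 CPM. Ift88 had 86.3 to 102 CPM against 88.4 to 98.5 CPM, with log2 fold changes of 0.07 for Ift52 and 0.03 for Ift88. Ttc30b, a repeat protein of the core, had 8.93 to 10.5 CPM against 8.40 to 10.3 CPM and a log2 fold change of 0.05 (SE 0.14). Its transcript was 94.3% identical over 2056 bases to that of Ttc30a1 and 94.95% over 2001 bases to that of Ttc30a2, so reads could be split among the 3 genes and its level is uncertain.

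In the peripheral IFT-B subunits, Traf3ip1 was the only member of the family whose groups did not overlap, against 0.981% of all genes with every labelled knockout above every wild type and 1.32% with every one below. Traf3ip1, also called Ift54, links trains to microtubules and had 79.0, 74.9, 75.5 and 78.5 CPM in labelled knockouts, against 72.2, 68.5, 70.1 and 69.8 CPM in wild types. The means were 77.0 ± 2.07 and 70.1 ± 1.51 CPM (SD, n = 4), a log2 fold change of 0.13 with a 95% interval of -0.04 to 0.31 and an edgeR adjusted p of 1.00. With library totals in place of TMM, labelled knockouts 1 to 3 remained above every wild type for this gene and labelled knockout 4 did not. Ift172, the large subunit that acts where trains turn at the tip, had 497, 442, 368 and 570 CPM against 497, 426, 451 and 460 CPM. Labelled knockout 3 was the lowest of the 8 libraries and labelled knockout 4 the highest, and the log2 fold change was 0.03 (95% interval -0.27 to 0.34).

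The other peripheral subunits also had their groups overlapping. Cluap1, also called Ift38, had 54.0, 64.7, 36.2 and 59.3 CPM against 48.4, 51.8, 55.4 and 54.6 CPM, with labelled knockout 3 at 68.9% of the wild-type mean. Ift57, a partner of Ift20, had 63.5, 53.8, 47.8 and 66.6 CPM against 54.9, 55.5, 55.0 and 59.1 CPM. For both genes labelled knockout 3 was the lowest library, and the log2 fold changes were 0.03 (SE 0.16) and 0.05 (SE 0.11). Ift20, which also works at the Golgi, had 62.2 to 72.8 CPM against 62.0 to 70.6 CPM. Ift80 had 138 to 159 CPM against 134 to 142 CPM. Their log2 fold changes were 0.06 (SE 0.09 for both genes), and neither separated the groups. Gm20695 overlaps 22.4% of the exons of Cluap1 on the same strand, with at most 9 counts in a library.

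The motors had median log2 fold changes of -0.01 over 3 kinesin-2 genes and 0.00 over 2 dynein-2 genes. Kif3a, a motor subunit of heterotrimeric kinesin-2, had 114, 113, 112 and 114 CPM in labelled knockouts and 112 to 119 CPM in wild types, a coefficient of variation of 0.715% and 2.81%. Its log2 fold change was -0.01 with a 95% interval of -0.19 to 0.17. Kif3b, its partner, was less even at 278, 252, 238 and 335 CPM against 274, 267, 267 and 263 CPM, with labelled knockouts 1 and 4 above every wild type, labelled knockouts 2 and 3 below every one and a log2 fold change of 0.04 (95% interval -0.22 to 0.30). Kif3c, an alternative partner of Kif3a, stood at 2.80 to 4.00 CPM against 2.71 to 4.62 CPM, and the antisense transcript 1110002L01Rik overlaps 35.3% of its exons with 145 to 268 counts per library, reads that cannot be told apart from those of Kif3c because no strand setting is known. Dync2h1, the heavy chain that drives return transport, had 203, 219, 213 and 226 CPM against 220, 226, 215 and 196 CPM. These groups overlapped almost wholly, with a log2 fold change of 0.01 and a 95% interval of -0.20 to 0.22. Dync2li1, its light intermediate chain, had 30.7 to 38.5 CPM against 33.0 to 36.2 CPM and a log2 fold change of 0.00 (SE 0.10).

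**Figure D3:**
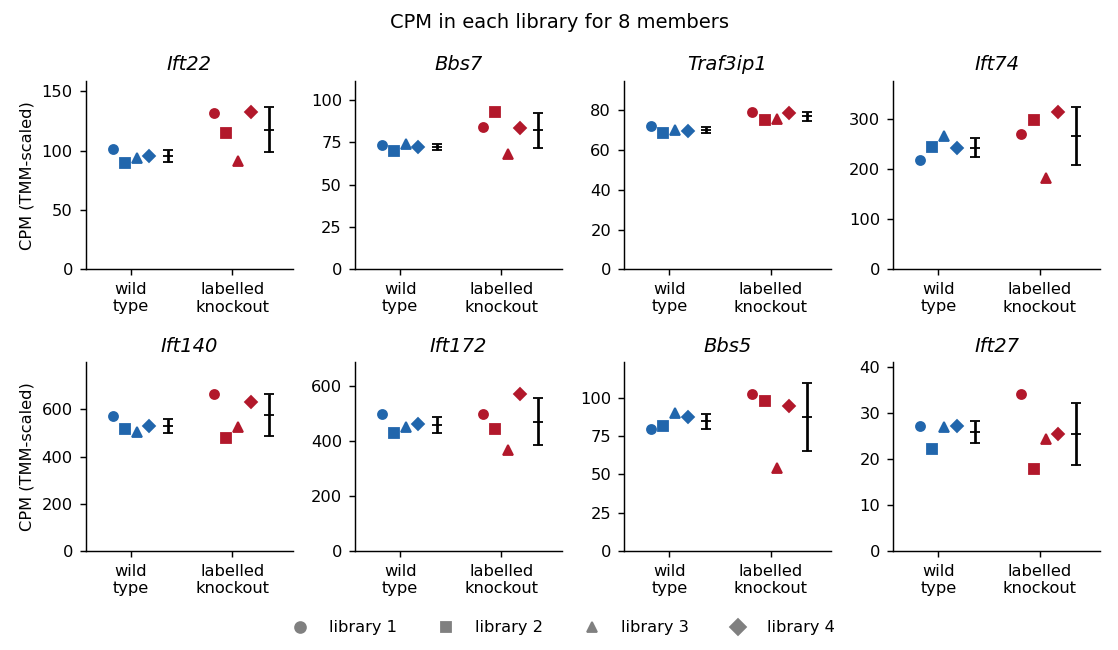
TMM-scaled CPM (vertical axes, from 0) in each wild-type library (blue) and labelled knockout (red) for 8 members, with marker shape for the library number and black bars for mean ± SD (n = 4). Ift22, Bbs7, Ift74 and Bbs5 have 3 labelled knockouts above every wild type, and Traf3ip1 has all 4. Labelled knockout 3 is the lowest library for Bbs7, Ift74, Ift172 and Bbs5. The numbers 1 to 4 are not known to pair libraries across groups.

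In the BBSome, Bbs7 and Bbs5 had the largest shifts in single libraries. Bbs7, part of the core that assembles on the chaperonin, had 83.9, 92.6, 67.9 and 83.7 CPM against 73.4, 70.0, 73.7 and 72.1 CPM. Labelled knockouts 1, 2 and 4 were above every wild type and labelled knockout 3 below every one. The means were 82.0 ± 10.3 and 72.3 ± 1.70 CPM (SD, n = 4), a log2 fold change of 0.18 with a 95% interval of -0.05 to 0.41. Bbs5, which binds phosphoinositides, had 103, 97.9, 54.4 and 94.5 CPM against 79.3, 81.4, 90.0 and 87.6 CPM. Here too labelled knockouts 1, 2 and 4 were above every wild type, while labelled knockout 3 was at 64.3% of the wild-type mean, the lowest such share among the coding members in that library. The log2 fold change of Bbs5 was 0.05 (95% interval -0.33 to 0.43) over all libraries and 0.20 without labelled knockout 3 (edgeR adjusted p = 0.177).

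The remaining BBSome subunits differed little between the groups. Bbs1, the subunit that binds the GTPase Arl6, had 33.8, 28.0, 36.4 and 30.3 CPM against 31.3 to 35.1 CPM. Bbs2, a core subunit, had 40.6, 44.8, 47.9 and 41.0 CPM against 41.3 to 45.8 CPM. In both genes labelled knockout 3 was the highest of the 8 libraries, the opposite of its place for Bbs5 and Bbs7. Bbs4 had 21.4 to 23.9 CPM against 20.3 to 23.7 CPM, and Bbs9 had 64.7 to 71.6 CPM against 62.6 to 68.5 CPM. The log2 fold changes were -0.06 for Bbs1, -0.02 for Bbs2, 0.00 for Bbs4 and 0.05 for Bbs9, with SEs of 0.09 to 0.11.

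Of the chaperonin-like genes, Bbs10 had 21.3, 21.6, 19.3 and 23.0 CPM against 18.3, 19.4, 19.9 and 18.5 CPM. Labelled knockout 3 lay among the wild types and the other 3 above them, with a log2 fold change of 0.16 (95% interval -0.07 to 0.39). Bbs12 had 6.0, 6.27, 6.41 and 5.83 CPM against 5.18, 7.18, 7.16 and 7.0 CPM. Apart from wild type 1, the wild types lay above all labelled knockouts, and the log2 fold change was -0.12 (95% interval -0.47 to 0.24). The antisense RNA Ift88os had only 4 to 19 counts per library (0.180 to 0.937 CPM), and its log2 fold change of 0.15 had an SE of 0.52, too wide to show a difference of the size seen in the coding members. Exons of 5 further coding members overlap a gene on the opposite strand, whose reads cannot be separated either: Cluap1 shares 368 bases with 1700016D08Rik, which had no count in any library, and 51 with Gm15537, which had at most 2, Ift88 shares 67 bases with Ift88os, Bbs4 194 with Adpgk, Ift57 225 with Gm15518 and Bbs12 32 with Cetn4, which had 4328 to 6873 counts per library.

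Seen library by library, the family did not move as a block. Under TMM scaling, 19 of 31 members in labelled knockout 1 lay above every wild type and 1 below every one, against 32.5% and 32% of all genes. In labelled knockout 2 the counts were 11 and 6, against 26.3% and 26.4%, and in labelled knockout 4 they were 19 and 2, against 34% and 33.9%. In labelled knockout 3 only 5 lay above and 11 below, against 33.5% and 36.1%. These directions depend on the scaling: with library totals alone the counts above and below were 8 and 8, 9 and 7, 17 and 6, and 7 and 10 in labelled knockouts 1 to 4, against 20.3%, 23.1%, 46.7% and 19.7% of all genes above and 44.3%, 29.5%, 26.6% and 48.8% below. With RLE size factors they were 19 and 1, 11 and 6, 4 and 11, and 18 and 2, against 33%, 26.2%, 33.2% and 34.4% of all genes above and 31.6%, 26.6%, 36.4% and 33.7% below. Members that lay outside the wild-type range the same way under TMM, RLE size factors and library totals were fewer. In labelled knockout 1 there were 8 above under all 3 scalings, Bbs5, Bbs7, Ift140, Ift22, Ift27, Ift43, Ift46 and Traf3ip1, and 1 below, Bbs2, against 20.3% and 31.5% of all genes. In labelled knockout 2 there were 9 above, Bbs10, Bbs5, Bbs7, Cluap1, Ift22, Ift74, Ift80, Ift81 and Traf3ip1, and 6 below, Bbs1, Ift122, Ift140, Ift27, Ift57 and Kif3b, against 23.1% and 26.3%. In labelled knockout 3 there were 4 above, Bbs1, Bbs2, Ift88os and Traf3ip1, and 6 below, Bbs5, Cluap1, Ift172, Ift57, Ift74 and Ift81, against 33.2% and 26.6%. In labelled knockout 4 there were 7 above, Bbs10, Bbs7, Ift172, Ift22, Ift57, Ift74 and Kif3b, and 2 below, Bbs1 and Bbs2, against 19.7% and 33.6%. The median SD of log2 CPM over the members was 0.15 in labelled knockouts and 0.07 in wild types, beside 0.30 and 0.13 over all genes tested.

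**Figure D4:**
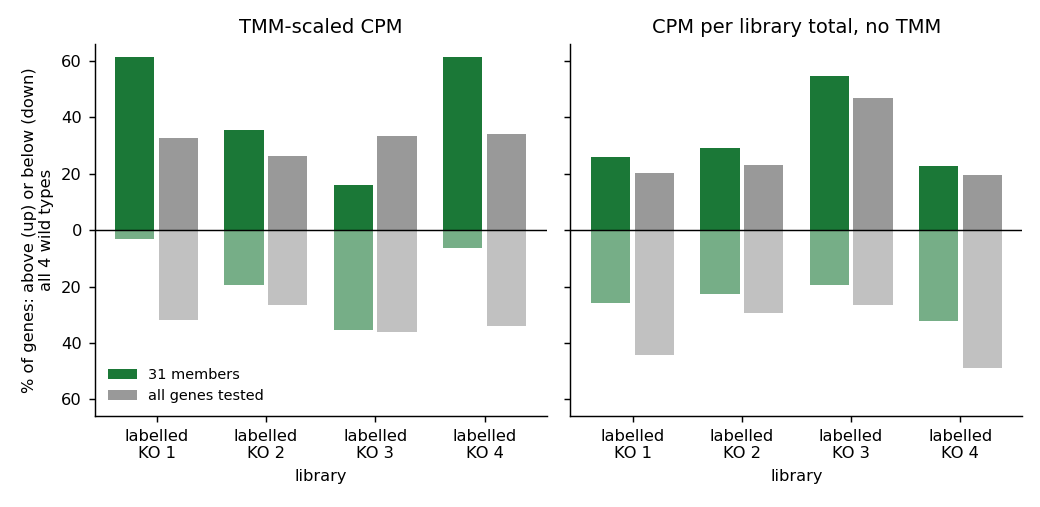
Percentage of the 31 members (green) and of all 21805 genes tested (grey) that lay above (upward bars) or below (downward, paler bars) all 4 wild types in each labelled knockout, with TMM scaling on the left and library totals on the right. With TMM, 61.3% of members were above in labelled knockouts 1 and 4 and 16.1% in labelled knockout 3. The shares of all genes were 32.5%, 34% and 33.5% in labelled knockouts 1, 4 and 3. With library totals the members' shares in labelled knockouts 1, 4 and 3 were 25.8%, 22.6% and 54.8%. Those of all genes were 20.3%, 19.7% and 46.7%, so both sets of shares change with the scaling.

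Without labelled knockout 2, whose Ak9 level lay within the wild-type range, 0 of 31 members were called, against 0.0226% of genes higher and 0% lower. The median log2 fold change of the members was 0.04. Ift22, at 0.30, was then the 1 member with an unadjusted p under 0.05, against 1.19% of genes higher and 1.98% lower. Without labelled knockout 3, which stood apart, 0 of 31 members were called, against 0.104% higher and 0.0542% lower. The unadjusted p of 5 members was then under 0.05, all higher, against 10% of genes higher and 9% lower. These were Ift22, Bbs7, Ift74, Bbs5 and Ift43, with log2 fold changes of 0.40, 0.25, 0.26, 0.20 and 0.24 and edgeR adjusted p-values of 0.0734, 0.119, 0.148, 0.177 and 0.234. The median over members was 0.07 beside -0.01 over all genes. Marker values of cell types are given here beside those of the family. The mean log2 CPM of the 30 coding members, relative to the wild-type mean, was 0.12, 0.05, -0.10 and 0.11 in labelled knockouts 1 to 4. The same mean over the 11 tested round spermatid markers was 0.37, 0.25, -0.64 and 0.27, over the 10 elongating spermatid markers 0.38, 0.07, -0.82 and 0.47 and over the 11 spermatocyte markers 0.10, 0.04, 0.06 and 0.07. The 10 Sertoli markers were at -0.16, 0.05, 0.50 and -0.48. Under TMM, labelled knockout 3 was thus the lowest library for the members and both spermatid lists and the highest for the Sertoli list. Of the markers of multiciliated cells, as in efferent ducts, 8 of 10 were tested. Their summed level was 1037 to 1441 CPM in labelled knockouts and 1111 to 1277 CPM in wild types. The list holds Foxj1, Dynlrb2 and Rsph1, which are also in other lists used here. Of the 8, 1 had an unadjusted p under 0.05, lower, against 1.79% of all genes. Every labelled knockout was below every wild type for 1, against 1.32%. The lowest log2 fold change was -0.59, and neither edgeR nor DESeq2 called any of the 8. Mcidas, which was not tested, had 0 to 9 counts per library. The 8 Leydig markers were at -0.32, -0.39, -0.06 and -1.05. All 8 had a log2 fold change below 0, as did 10272 of the 21805 genes tested. Of the 8, edgeR called 0 and DESeq2 called 1, Hsd3b1, against 0.0688% of all genes called lower by DESeq2. Hsd3b1 had a log2 fold change of -0.85 (edgeR adjusted p = 0.382, DESeq2 adjusted p = 0.00588), with every labelled knockout below every wild type. The 7 macrophage markers were at -0.47, -0.07, -0.05 and -0.40, and the 10 spermatogonia markers at -0.33, -0.04, 0.11 and -0.26. The 6 endothelial markers were at -0.28, -0.15, -0.18 and -0.04 and the 6 peritubular myoid markers at 0.13, 0.37, 0.14 and 0.07. Labelled knockout 4 was thus the lowest library for the Leydig and Sertoli lists. Log2 fold changes were below 0 for all 7 macrophage, all 6 endothelial, 8 of 10 spermatogonia and 6 of 10 Sertoli markers. They were above 0 for all 6 myoid, all 11 round spermatid, 9 of 10 elongating spermatid and 9 of 11 spermatocyte markers. Of all genes tested, 52.9% were above 0. The Sertoli marker Sox9, at 0.48, had every labelled knockout above every wild type, as did 0.981% of all genes. Neither edgeR nor DESeq2 called it. The part of these cell types in the members' values was not tested. With library totals in place of TMM the mean over all 31 members was -0.02, 0.03, 0.07 and -0.05, beside -0.13, -0.03, 0.07 and -0.18 over all genes tested and 0.25, 0.22, -0.49 and 0.11 over the round spermatid markers.

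**Figure D5:**
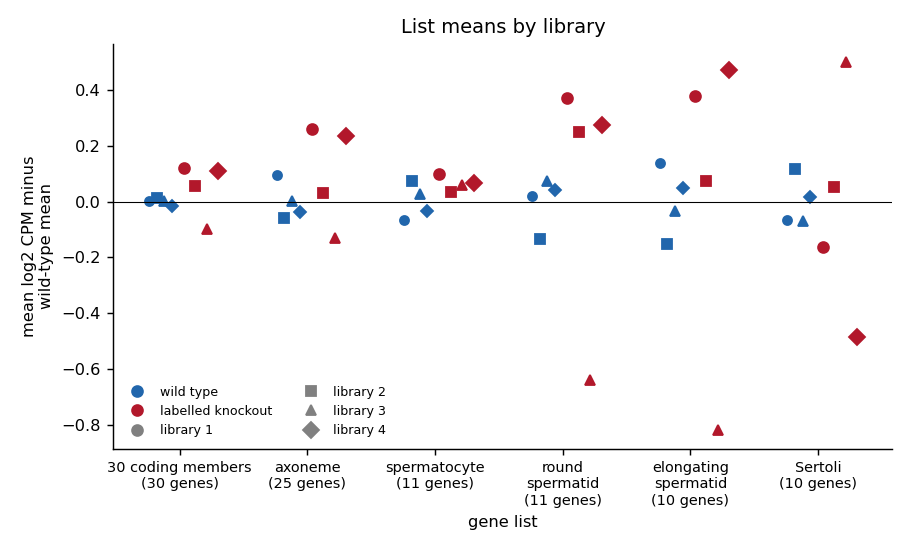
Mean log2 CPM (TMM-scaled) of a gene list in each library minus the mean of the 4 wild types (vertical axis), for the 30 coding members and 5 lists of axoneme genes and cell markers (horizontal axis); colour gives the genotype label and shape the library number. Labelled knockout 3 is the lowest library for the members, the axoneme list and both spermatid lists and the highest for the Sertoli list. With library totals in place of TMM, the value of labelled knockout 3 for all 31 members is 0.07 and that of labelled knockout 4 is -0.05, beside 0.07 and -0.18 over all genes tested.

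Genes of the pathway outside the rule gave a like result. Of 57 such genes, 55 were tested and 0 were called in either direction by edgeR or DESeq2. Over all genes edgeR called 0.0183% higher and 0% lower, and DESeq2 0.0884% and 0.0688%. Under TMM scaling the 55 genes had a median log2 fold change of 0.06, and 42 were above 0, against 52.9% of all genes. An unadjusted p under 0.05 was found for 2 of the 55, Ttc21b and Pde6d, against 1.25% of all genes higher and 1.79% lower. Among IFT-A subunits, Ttc21b, which acts in return transport, had 210, 197, 181 and 198 CPM in labelled knockouts against 168 ± 6.98 CPM (SD, n = 4), with no overlap and a log2 fold change of 0.22 (SE 0.09, edgeR adjusted p = 1.00). Tulp3, an adaptor of IFT-A for membrane receptors, had a log2 fold change of -0.13. The related genes Ttc30a1 and Ttc30a2 had log2 fold changes of 0.12 and 0.09. Kifap3, the non-motor subunit of kinesin-2, had 401, 408, 202 and 428 CPM against 339 ± 19.0 CPM (SD, n = 4), and the kinesin Kif17 had 423, 306, 224 and 470 CPM against 351 ± 29.6 CPM (SD, n = 4). Labelled knockout 3 was the lowest library for both, while Kif3a, which Kifap3 binds, stayed at 112 CPM there. The dynein light chains Dynlrb1 and Dynll1 had log2 fold changes of -0.25 and 0.11. The BBSome subunits Bbip1 and Ttc8 had 0.09 and 0.11, the chaperonin-like Mkks had -0.14, and Arl6, the GTPase that recruits the BBSome to membranes, had 0.18, next to 0.13 for Wdpcp.

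Pde6d, a carrier of lipid-modified ciliary proteins, had a log2 fold change of 0.26 (SE 0.11), and Spef2, a partner of Ift20 in the sperm tail, had 0.13. At the transition zone, the gate at the base of the cilium, 0 of 14 genes were called and 0 had an unadjusted p under 0.05, with 0.18 for Cep290 and -0.15 for Nphp4. Of 7 transcription factors of ciliary genes, 5 were tested, 0 were called and 0 had an unadjusted p under 0.05. Foxj1, which switches on genes for motile cilia, had 112, 71.1, 47.4 and 102 CPM against 65.4 ± 5.48 CPM (SD, n = 4), with labelled knockouts 1 and 4 above and labelled knockout 3 below every wild type and a log2 fold change of 0.34 (SE 0.22). Of the RFX family, which binds the X-box, Rfx2 had 369, 285, 296 and 446 CPM against 341 ± 22.9 CPM (SD, n = 4), and the log2 fold changes were 0.05 for Rfx1, 0.03 for Rfx2, 0.06 for Rfx3 and -0.06 for Rfx4. Of 26 axoneme genes, 25 were tested and 0 were called. An unadjusted p under 0.05 was found for 1, against 1.25% of all genes higher and 1.79% lower. Under TMM scaling 23 were above 0, against 52.9% of all genes, with a median of 0.10 beside 0.01 over all genes tested. Cfap61, a radial spoke component, had 95.5, 82.8, 58.1 and 80.6 CPM against 57.7 ± 1.89 CPM (SD, n = 4) and a log2 fold change of 0.46 (edgeR adjusted p = 1.00), and Tekt3, a microtubule inner protein, had 0.25.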

How the data were processed

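RNA from adult testis was measured in 8 libraries, 4 per genotype label. Per the labels' protocols, total RNA was taken up in TRIzol, treated with DNase and prepared with a TruSeq RNA kit. The authors deposited raw read counts, whole numbers without normalization, with 1 row for each Ensembl gene. Trimmomatic, STAR, featureCounts and DESeq2 with the builds GRCm39 and mm39 were used, per the submitters' processing notes; tool versions, annotation release, strand setting and the handling of multiply matching reads were not stated there. Of 56748 identifiers, 52073 were matched to a symbol.

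Genes were filtered with filterByExpr (minimum count 10, minimum total 15), which left 21805, scaled by TMM and tested with edgeR 4.0.16 (limma 3.58.1, R 4.3.3) by its quasi-likelihood test without covariates, on all 8 libraries, with Benjamini-Hochberg adjustment over all genes and a threshold of 0.05. Intervals are 95% and use edgeR's total degrees of freedom (residual plus prior, 11.0). CPM are per TMM-scaled total of the tested genes. List means use log2(CPM + 0.5). A count of 0 allows up to 0.123 to 0.166 CPM, taking 3 counts as the limit, for counting error only. Separate animals are not named for the libraries of a group; p-values therefore measure only library-to-library spread, which may be technical. No libraries of the same group were copies (chi-square per gene of at least 4.52). Pairs across the groups are not covered by that check. Lengths are merged exons of GENCODE M21 (GRCm38), which is not the authors' build and was used for names, lengths and overlaps; copies were sought with blastn 2.17.0. Scripts were tested on simulated counts.

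The members and lists were chosen with earlier results of these data known. The text names every member, with each library's value at least for the 10 with the smallest p and the one with the highest CPM in each role, and 2 genes outside the rule per pathway list, those with the smallest p. Values of other genes were chosen after they were seen. Alternatives tried were DESeq2 1.42.0, limma-voom (also with quality weights), RLE size factors, a block for the replicate number, other low-count filters (none, or a mean of at least 1 CPM), CPM without length and leaving out each library. Library totals without TMM, and RLE for the counts per library, were added after the data were examined.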

Additional observations from a re-analysis of the deposited data

Results flagged for a closer look

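Each of the 31 members was examined in both groups, 62 sets of 4 values in all, for a library far from the other 3. In 5 sets the highest or lowest library stood apart by more than Dixon's 95% limit for 4 samples, where chance gives about 1 in 20. Labelled knockout 3 had 54.4 CPM of Bbs5, against 94.5 to 103 CPM in the other labelled knockouts. Wild type 1 had 5.18 CPM of Bbs12, against 7.0 to 7.18 CPM in the other wild types. Wild type 1 also had 98.0 CPM of Ift46, against 90.4 to 90.8 CPM. Wild type 2 had 22.3 CPM of Ift27, against 26.9 to 27.3 CPM. Wild type 4 had 59.1 CPM of Ift57, against 54.9 to 55.5 CPM.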

How the results depend on the processing

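No member was called under any alternative, and the members' median log2 fold change was -0.01 with library totals and 0.03 to 0.08 in the other settings that kept all libraries. Over all genes, calls higher and lower were 4 and 0 in the analysis described, 16 and 10 with no low-count filter, 27 and 21 with DESeq2, 9 and 5 with limma-voom and quality weights and 5 and 1 with library totals. The 4 genes, named after their values were seen, were Slc26a10, Rps26-ps1, Gm7435 and Gm49725. Leaving out 1 library gave 3 to 23 higher calls, 0 to 24 lower calls and a members' median of 0.02 to 0.07. The highest and lowest counts came without labelled knockout 3 (23 and 12), labelled knockout 1 (9 and 24), labelled knockout 4 (14 and 19) and wild type 1 (3 and 0). The cause of these changes was not tested.

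The replicate numbers are not known to pair the libraries. Deviations of same-numbered libraries from their group means correlated at 0.125, 0.0537, -0.0474 and 0.0364, values too few to decide the question. The replicate block gave 4 and 0 calls, 0 members and a members' median of 0.03, and turned Cluap1 to -0.0014 and Dync2li1 to -0.0016. The labelled knockouts 1 to 4 correlated best with wild types 1, 2, 2 and 1, so not every library matched its own number.

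The sign of a member's log2 fold change turned in 22 cases under settings that kept all libraries, in 12 members. With no filter Bbs4 was at -0.0098, Dync2h1 at -0.0072 and Dync2li1 at -0.0099. With a mean of at least 1 CPM, where Ift88os falls out, the same genes were at -0.0050, -0.0023 and -0.0059. With limma-voom Cluap1 was at -0.0056 and Dync2li1 at -0.00063, and with quality weights Ift88os was at -0.35. With library totals the values were -0.034 for Bbs4, -0.014 for Bbs5, -0.028 for Cluap1, -0.031 for Dync2h1, -0.040 for Dync2li1, -0.029 for Ift122, -0.020 for Ift172, -0.0056 for Ift57, -0.019 for Ift81, -0.012 for Ift88 and -0.0079 for Kif3b. Leaving out 1 library turned the sign of 17 members: Bbs2 ran from -0.078 to 0.012, Bbs4 -0.046 to 0.034, Bbs5 -0.048 to 0.20, Cluap1 -0.093 to 0.16, Dync2h1 -0.035 to 0.032, Dync2li1 -0.058 to 0.044, Ift122 -0.045 to 0.051, Ift172 -0.074 to 0.12, Ift27 -0.20 to 0.10, Ift57 -0.030 to 0.11, Ift81 -0.057 to 0.14, Ift88 -0.0086 to 0.059, Ift88os -0.30 to 0.46, Kif3a -0.025 to 0.0059, Kif3b -0.066 to 0.092, Kif3c -0.20 to 0.066 and Ttc30b -0.0095 to 0.085. The other 14 members kept their sign in every setting run.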
